A study of Bos taurus with 16 samples.

Results

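The transcripts of 10 genes for maternal mRNA-binding proteins were followed from the mature oocyte to the blastocyst in bovine embryos that developed in vivo. The genes were ZAR1, YBX1, YBX2, CPEB1, CPEB4, DAZL, LSM14B, DDX6, IGF2BP2 and IGF2BP3. They were chosen by name, with earlier results of these data known. Each name matched 1 locus among the 27393 loci of the deposited data. Of the 10 genes, 9 had enough reads for the tests, and IGF2BP2 did not.

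The samples were single Bos taurus oocytes and whole embryos, 2 at each of 8 stages and 16 in all. Oocytes were matured in vivo and taken at metaphase II (MII). The cleavage stages are called 2C, 4C, 8C and 16C after their cell number, and they were followed by the early morula (EM), the compact morula (CM) and the blastocyst (BL). No embryo was treated or genetically altered, and the labels give neither breed nor dam, so p-values measure the spread between these samples. Because bovine embryonic genome activation (EGA) falls between the 4- and 8-cell stages, the 6 MII, 2C and 4C samples are called before EGA and the 10 later samples after EGA. A change at EGA, below, is the difference between these periods, and the steps between single stages are given apart from it.

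A growing oocyte makes far more mRNA than it translates, and stores it until after fertilization. The storage is done by RNA-binding proteins that package transcripts, hold them silent or lengthen and shorten their poly(A) tails, and the embryo depends on these stocks until its own genome is switched on. The mRNAs for these proteins are themselves part of the stock. Levels below are normalised counts, the reads of a gene divided by a size factor of the sample. They are not divided by transcript length, so they can be compared between stages for a gene but not between genes. They are also relative to the other transcripts of the sample, so fewer cells of a type and less RNA per cell cannot be told apart. Between 607672 and 3379426 reads per sample were recovered from the deposited values, and 3 reads, the smallest number taken as detected, equal 1.09 to 5.40 normalised counts.

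The samples carried the marker genes of their labels in part. The 5 oocyte markers together held 2722 to 10004 CPM before EGA and 2.95 to 1384 CPM after it. CPM are reads in units of 1e6 of the sample's total. Most of these reads were on H1FOO, and BMP15 is listed at 0 in every sample. The blastocyst markers held 1083 and 1144 CPM in the 2 blastocysts and at most 258 CPM elsewhere, mostly on KRT8, KRT18 and GATA3. CDX2 had no read in either blastocyst, and NANOG was highest in 8C replicate 2 (84.9 normalised counts). Of 8 cumulus cell markers, AMH is listed at 0 throughout, CYP11A1 and TNFAIP6 had no reads before EGA and PTX3 at most 4, whereas FSHR had 4 to 21 reads and CYP19A1 8 to 72. After EGA, FSHR had none and CYP19A1 at most 14. The list held 564 to 1986 CPM before EGA and 382 to 873 CPM after it, mostly on STAR, and HAS2, with 124 to 1007 reads before EGA, had at most 19 after it. Whether these transcripts share a source with those of the genes described here was not tested. The 8-cell embryos stand apart from each other: replicate 1 had 24.7 CPM of the oocyte markers and replicate 2 had 1384 CPM. H1FOO held 17 of the 20 marker reads in replicate 1 and 1400 of the 1439 in replicate 2. Calls between the 4- and 8-cell stages are therefore also given with 1 of these embryos left out, and the comparison of the periods kept its 9 calls with both left out.

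Across EGA, 7 of the 10 genes fell (DAZL, CPEB1, ZAR1, CPEB4, IGF2BP3, YBX2 and LSM14B), and 2 rose (YBX1 and DDX6). The test was limma on log2(normalised count + 1), 6 against 10 samples, with Benjamini-Hochberg adjustment over all 6910 loci tested. In the same comparison 66.8% of all loci passed the threshold of 0.05, with 36.9% higher and 29.9% lower after EGA, so that a pass alone is common. Their median log2 change was -4.09 over the 9 genes tested, against 0.23 over all loci. All 9 also passed in edgeR and DESeq2, with other sizes for ZAR1 (-3.61 and -3.46), CPEB1 (-5.20 and -5.13), IGF2BP3 (-3.47 and -3.34) and YBX1 (1.32 and 1.49) than those of limma given below. For DAZL the log2 change was -6.22 in limma, -8.47 in edgeR and -8.45 in DESeq2. For 4 of the 9 (CPEB1, CPEB4, DAZL and IGF2BP3) every sample after EGA lay below every sample before it, which held for 14.1% of all loci. Reads in the samples before EGA alone could bring a locus into this comparison, as for DAZL and CPEB1. That count and the median of the 9 genes therefore describe them and are no independent test. In the model of 8 stages, all 9 genes tested had a stage effect (adjusted p between 7.4e-06 and 0.0224 from limma), as did 66.7% of 9670 loci. With scaling by total reads, that of LSM14B no longer passed (adjusted p = 0.145 from limma).

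**Figure D1:**
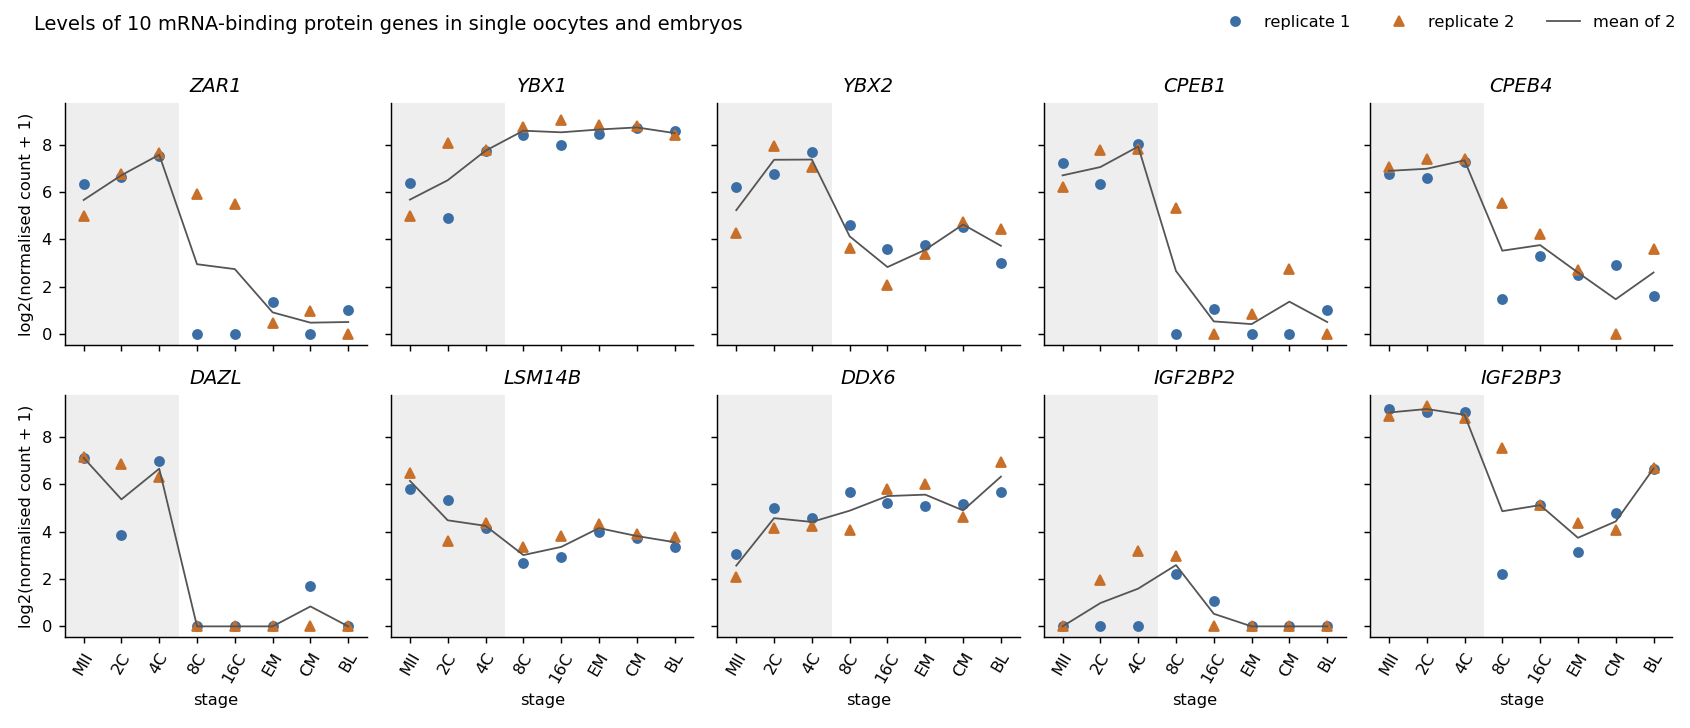
Level of each of the 10 genes on the log2(normalised count + 1) scale (y axis) by stage (x axis), with a point for each of the 2 samples of a stage and a line through their mean. The grey area marks the stages before EGA. DAZL drops to 0 at the 8-cell stage, YBX1 stays high from then on, and IGF2BP3 is at about 100 normalised counts in both blastocysts.

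**Figure D2:**
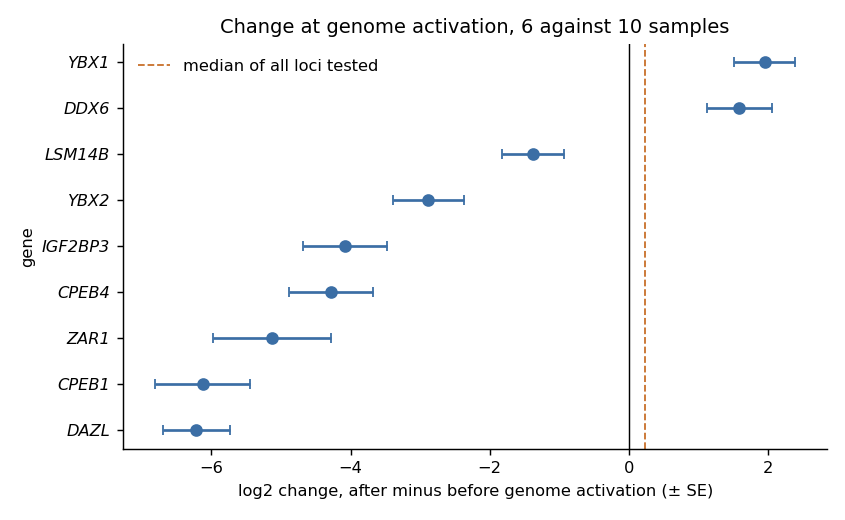
Log2 change from before to after EGA with its standard error (x axis) for the 9 genes tested (y axis), from limma on 6 against 10 samples. The dashed line is the median of all loci tested, at 0.23, and YBX1 and DDX6 lie to the right of it.

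ZAR1 (XLOC_060241), zygote arrest 1, is an oocyte protein that binds maternal mRNAs and is needed for the first cleavages. MII oocytes held 79.4 and 30.8 normalised counts of it, 2-cell embryos 98.9 and 108, and 4-cell embryos 183 and 197. In 8-cell embryos it is listed at 0 in replicate 1 and at 58.5 (51 reads) in replicate 2. The 16-cell embryos showed the same kind of gap, with 0 in replicate 1 and 43.7 normalised counts (27 reads) in replicate 2. From the early morula on, no sample had more than 2 reads. The 4-cell level was therefore the highest, and both 4-cell embryos lay above both MII oocytes, but the log2 difference of 1.91 (standard error 1.62) did not pass in limma (adjusted p = 0.503). At EGA, ZAR1 fell by 5.13 on the log2 scale (standard error 0.85, adjusted p = 2.0e-05 from limma). The groups overlapped through replicate 2 of the 8- and 16-cell stages.

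From the 4- to the 8-cell stage, ZAR1 fell by 4.63 (standard error 1.62, adjusted p = 0.0358 from limma). Without the 8-cell embryo that had no reads the change was -1.68 (adjusted p = 0.469 from limma). Without either 4-cell embryo the change stayed at -4.57 and -4.68, though it no longer passed (adjusted p of 0.139 and 0.144 from limma). The call was also lost in edgeR (-2.54, adjusted p = 0.116) and DESeq2 (-2.68, adjusted p = 0.165), and in limma without a filter (adjusted p = 0.0764), with a pseudocount of 0.5 (adjusted p = 0.0535) or with the compared stages alone (adjusted p = 0.137). Against the 16-cell stage, where ZAR1 fell by 4.83 (adjusted p = 0.0285 from limma), the value was -2.09 (adjusted p = 0.375) without replicate 1 of the 16-cell stage. The 16-cell call was also lost in edgeR (-3.02, adjusted p = 0.0701) and DESeq2 (-3.13, adjusted p = 0.101), and in limma without a filter (adjusted p = 0.0607) or with the compared stages alone (adjusted p = 0.0691).

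The Y-box proteins package mRNA into silent particles. YBX2 (XLOC_027846) is the germ cell form and YBX1 (XLOC_051161) the form found in most cells. Between the periods they moved in opposite directions, whereas from MII to 4C both had positive log2 changes that did not pass (2.07 for YBX1 and 2.14 for YBX2, adjusted p of 0.108 and 0.098 from limma). MII oocytes held 72.9 and 18.1 normalised counts of YBX2, 2-cell embryos 108 and 248, and 4-cell embryos 203 and 133. After EGA, YBX2 ranged from 3.23 to 25.3 with a median of 11.9 over 10 samples. It fell by 2.88 on the log2 scale (standard error 0.51, adjusted p = 4.7e-05 from limma), and the periods overlapped only through MII replicate 2. Unlike ZAR1 and CPEB1, it kept reads in every sample to the blastocyst.

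For YBX1 the MII oocytes held 81.2 and 30.8 normalised counts, the 2-cell embryos 29.3 and 268, and the 4-cell embryos 208 and 218. After EGA it ranged from 255 to 527 with a median of 395. YBX1 rose by 1.95 on the log2 scale (standard error 0.44, adjusted p = 5.4e-04 from limma). Both 8-cell and both 16-cell embryos lay above both 4-cell embryos. Even so, neither 8C (log2 change 0.85, adjusted p = 0.413) nor 16C (0.78, adjusted p = 0.457 from limma) passed against 4C. With 2 samples a stage, these tests cannot decide how much of the rise falls at the 4C to 8C step, so it is not placed there. The 2-cell embryos lay far apart, and their replicate 2 was the sample through which the periods overlapped. From the 8-cell stage on, the stage means lay between 359 ± 27.8 in blastocysts and 423 ± 17.1 in compact morulae (mean ± SD, n = 2).

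Set against each other within a sample, the reads of the Y-box pair shifted almost wholly to YBX1. YBX2 held 37.0% to 78.6% of the pair's reads in the 6 samples before EGA, and 0.610% to 6.44% in the 10 samples after it. In the 4-cell embryos its share was 49.3% (220 of 446 reads, 95% Wilson interval 44.7% to 54.0%) and 37.9% (164 of 433 reads, interval 33.4% to 42.5%). In the 8-cell embryos it was 6.44% (13 of 202 reads, interval 3.80% to 10.7%) and 2.58% (10 of 388 reads, interval 1.41% to 4.68%). Both 8-cell embryos, which differed in ZAR1, lay on the same side here. Intervals cover counting error only, because amplified molecules were not told apart.

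**Figure D3:**
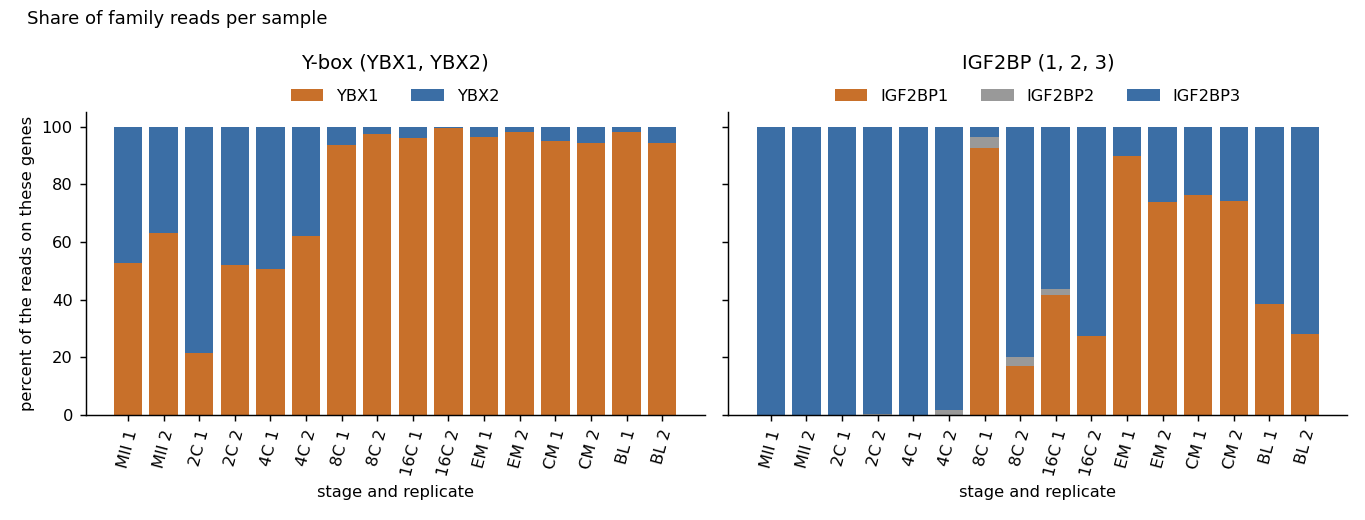
Percent of the reads of a family (y axis) on each of its genes in each of the 16 samples (x axis), for YBX1 and YBX2 on the left and IGF2BP1, IGF2BP2 and IGF2BP3 on the right. YBX2 drops from at least 37.0% to at most 6.44% at EGA, and IGF2BP1 goes from at most 0.147% to at least 17.0%.

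CPEB1 (XLOC_035385) binds a short element in the tail region of stored mRNAs, keeps them silent and, on maturation of the oocyte, drives the lengthening of their poly(A) tails. CPEB4 (XLOC_033392) is a relative that acts in the same process later in meiosis. MII oocytes held 147 and 72.3 normalised counts of CPEB1, 2-cell embryos 79.9 and 217, and 4-cell embryos 260.1 and 223. In 8-cell embryos it is listed at 0 in replicate 1 and at 39.0 (34 reads) in replicate 2. No later sample had more than 6 reads. CPEB1 fell by 6.13 on the log2 scale at EGA (standard error 0.68, adjusted p = 1.2e-07 from limma). The 2 16-cell embryos had 1 read of it together against 557 in the 4-cell embryos, a 345-fold lower share of reads with an interval from 61.7 to 13666.

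CPEB4 was the steadier of the pair before EGA, with 106 and 131 normalised counts in MII oocytes, 94.2 and 167 in 2-cell and 153 and 168 in 4-cell embryos. In CPM the MII oocytes held 51.0 and 53.9, and the 4-cell embryos 115 and 127. The 8-cell embryos held 1.80 (1 read) and 45.9 (40 reads) normalised counts. From the 16-cell stage on it ranged from 0 to 17.8 normalised counts and had at least 3 reads in all but 2 of the 8 samples. It fell by 4.28 at EGA (standard error 0.60, adjusted p = 2.4e-06 from limma). Against the 4-cell stage, both CPEB genes passed the test at the 8-cell stage (CPEB1 -5.26, adjusted p = 0.00668, and CPEB4 -3.82, adjusted p = 0.0167 from limma). Without the 8-cell replicate 1 neither passed, with values of -2.60 (adjusted p = 0.103) and -1.78 (adjusted p = 0.252 from limma).

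DAZL (XLOC_000992), a germ cell protein that recruits the translation machinery to maternal mRNAs, was absent or nearly so from the 8-cell stage on. It held 136 and 141 normalised counts in MII oocytes, 13.5 and 117 in 2-cell and 126 and 79.6 in 4-cell embryos. Both 8-cell embryos had no read of it. Among the 10 samples after EGA, 9 are listed at 0, and compact morula replicate 1 had 2 reads. Over the pooled samples, 852 reads before EGA stand against 2 after it. That is a 370.3-fold lower share of reads with an interval from 102 to 3063, but 2 reads are below the 3 taken as detected. From the 4- to the 8-cell stage DAZL was at least 47.2-fold lower, taking 3 reads over both 8-cell embryos as the limit that no read allows. Its fall passed the test at EGA (adjusted p = 7.7e-10 from limma) and at the 8-cell stage (adjusted p = 1.3e-04). In 8-cell replicate 2, where ZAR1, CPEB1, CPEB4 and the oocyte markers still had reads, DAZL had none.

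LSM14B (XLOC_012843) and DDX6 (XLOC_017453) belong to the complex that represses stored mRNAs, LSM14B as the oocyte form of a scaffold protein and DDX6 as its RNA helicase, which also works in the processing bodies of other cells. LSM14B was highest in MII oocytes, at 55.4 and 88.3 normalised counts. The 2-cell embryos held 39.6 and 11.3, and the 4-cell embryos 16.6 and 19.5. After EGA it ranged from 5.40 to 19.2 normalised counts with a median of 12.4 and was never at 0, though no sample of that period had more than 49 reads. At EGA it fell by 1.38 (standard error 0.44, adjusted p = 0.00895 from limma), the smallest of the 7 falls. Both 8-cell and both 16-cell embryos lay below both 4-cell embryos. Even so, neither 8C (log2 change -1.23, adjusted p = 0.174) nor 16C (-0.89, adjusted p = 0.329 from limma) passed against 4C. With 2 samples a stage, these tests cannot decide how much of the fall lies at the 4C to 8C step, so it is not placed there. When total reads were used for scaling, the change was -0.91 (adjusted p = 0.0885) and did not pass, and neither did it when the 8-cell embryos were counted as before EGA (-0.75, adjusted p = 0.229 from limma). Both 4-cell embryos lay below both oocytes, but the change of -1.90 from MII to 4C (standard error 0.69) had an adjusted p of 0.0963 from limma.

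DDX6 was lowest in MII oocytes, at 7.38 and 3.19 normalised counts (8 and 3 reads). The 2-cell embryos held 30.9 and 16.8, and the 4-cell embryos 23.1 and 17.9. After EGA it ranged from 16.1 to 124 with a median of 43.2, and the periods overlapped. It rose by 1.59 at EGA (standard error 0.47, adjusted p = 0.00526 from limma). The blastocysts held 50.7 and 124, the latter the highest value of the 16 samples, while the former lay below EM replicate 2 (64.5) and 16C replicate 2 (55.0). From 4C to 8C alone the log2 change was 0.48 (adjusted p = 0.625 from limma) and the samples overlapped, whereas from MII to 4C it was 1.85 (adjusted p = 0.114 from limma), so the rise between the periods is not placed at the 4C to 8C step.

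IGF2BP3 (XLOC_054010) and IGF2BP2 (XLOC_000255) belong to a family that binds mRNAs, many of them methylated on adenosine, and protects them from decay. IGF2BP3 was even before EGA in normalised counts, with 587 and 468 in MII oocytes, 536 and 630 in 2-cell and 540 and 445 in 4-cell embryos. In CPM it was lower in MII oocytes (282 and 193) than in 2-cell (451 and 510) and 4-cell embryos (406 and 337). The 8-cell embryos held 3.60 (2 reads) and 184 (160 reads) normalised counts. Early morulae held 7.73 and 19.5, compact morulae 26.6 and 15.9, and the 2 blastocysts 100.4 and 101. The lowest stage mean was that of early morulae, whose samples overlapped those of compact morulae. IGF2BP3 fell by 4.09 at EGA (standard error 0.60, adjusted p = 5.0e-06 from limma). Both blastocysts lay above both 16-cell embryos (33.7 and 34.0), but the log2 change of 1.55 (standard error 1.09) had an adjusted p of 0.438 from limma.

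IGF2BP2 was too low for the tests, with 27 reads in 5 of 16 samples. It is listed at 0 in both MII oocytes, and its highest values were 8.12 normalised counts (10 reads) in 4-cell replicate 2 and 6.88 (6 reads) in 8-cell replicate 2. The mean after EGA was 0.517 CPM below that before it (two-sided exact permutation test over 8008 splits, p = 0.69), so a change was not detectable at this depth. No sample after the 16-cell stage had a read.

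The third gene of the family, IGF2BP1 (XLOC_027965), had 2 reads in the 6 samples before EGA and 560 in the 10 samples after it, a 322-fold higher share of reads with an interval from 88.8 to 2666. Its normalised counts after EGA ranged from 12.9 to 90.1, with no overlap. It rose at EGA with an adjusted p of 1.1e-09 from limma. Within the family, IGF2BP3 held 98.2% to 100% of the reads before EGA. After EGA its share ranged from 3.70% (2 of 54 reads, 95% Wilson interval 1.02% to 12.5%) in 8-cell replicate 1 to 80.0% (160 of 200 reads, interval 73.9% to 85.0%) in 8-cell replicate 2. In the 2 blastocysts it was 61.5% and 71.9%.

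Stage by stage, from MII to 4C none of the 9 genes passed the test in limma, where 8.68% of all loci did (6.48% higher and 2.19% lower), and 4 of them (YBX1, YBX2, LSM14B and DDX6) had an unadjusted p under 0.05. None passed in edgeR or DESeq2 either. The log2 changes of YBX1, YBX2 and DDX6 were 2.07, 2.14 and 1.85, and these 3 passed when samples were scaled to total reads (2.81, 2.87 and 2.43, adjusted p between 0.0262 and 0.0488 from limma). That scaling moved the median of all loci from 0.15 to 0.68 and the calls from 627 higher and 212 lower to 1054 higher and 56 lower. From 4C to 8C, 6 of the 9 genes fell and none rose, where 36.8% of all loci passed (19.1% lower and 17.7% higher). YBX2 fell by 3.24 (adjusted p = 0.00531) and IGF2BP3 fell by 4.07 (adjusted p = 0.00958 from limma). In edgeR the change of IGF2BP3 was -2.28 and did not pass (adjusted p = 0.0676). With the compared stages alone it did not pass either (adjusted p = 0.142 from limma). Without 8-cell replicate 1 the change of IGF2BP3 was -1.41 and did not pass (adjusted p = 0.113 from limma). The same 6 genes passed against the 16-cell stage, where 37.9% of loci passed (19.1% lower and 18.8% higher). Both comparisons share the 4-cell samples. From 16C to BL none of the 9 passed in limma, edgeR or DESeq2 and none had an unadjusted p under 0.05 in limma, where 5.57% of all loci passed (3.34% higher and 2.23% lower).

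The 8-cell calls depended on which embryos were used. Without 8-cell replicate 1, 2 genes passed (YBX2 and DAZL), and without 8-cell replicate 2 all 6 passed, while 22.1% and 34.6% of all loci passed in these fits. Without 4-cell replicate 1 or replicate 2 the counts were 1 and 3 (18.3% and 17.7% of all loci), but there the log2 changes of the 6 genes moved by at most 0.33. With the 8- and 4-cell samples alone in the model, 2 passed. The 16-cell comparison gave 3 (YBX2, CPEB1 and DAZL) without either 4-cell embryo or 16-cell replicate 1, and 4 without 16-cell replicate 2, with 20.4% to 23.8% of all loci passing. In these fits the log2 change stayed between -3.68 and -3.96 for IGF2BP3 and between -3.10 and -4.06 for CPEB4. The comparison before and after EGA kept all 9 calls when any 1 of the 16 samples was left out.

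What a given embryo held of the 4-cell level differed by gene. Whether these transcripts were stored or newly made was not tested. In 8-cell replicate 1, IGF2BP3 stood at 0.732% of its 4-cell mean, CPEB4 at 1.12%, and ZAR1, CPEB1 and DAZL had no reads. There YBX2 was at 13.9% (13 reads) and LSM14B at 29.9% (3 reads, the smallest number taken as detected). In 8-cell replicate 2, IGF2BP3 stood at 37.3%, ZAR1 at 30.9%, CPEB4 at 28.6% and CPEB1 at 16.1%, while YBX2 was at 6.82% and DAZL had no reads. Replicate 2 was higher for 5 of the 7 genes that fell, and for all 4 oocyte markers that had reads at that stage. YBX2 was the exception among them, and DAZL was equal at 0. In 16-cell replicate 2, ZAR1 stood at 23.0% of its 4-cell mean, while CPEB1 and DAZL had no reads there and the oocyte markers 3 reads in all.

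**Figure D4:**
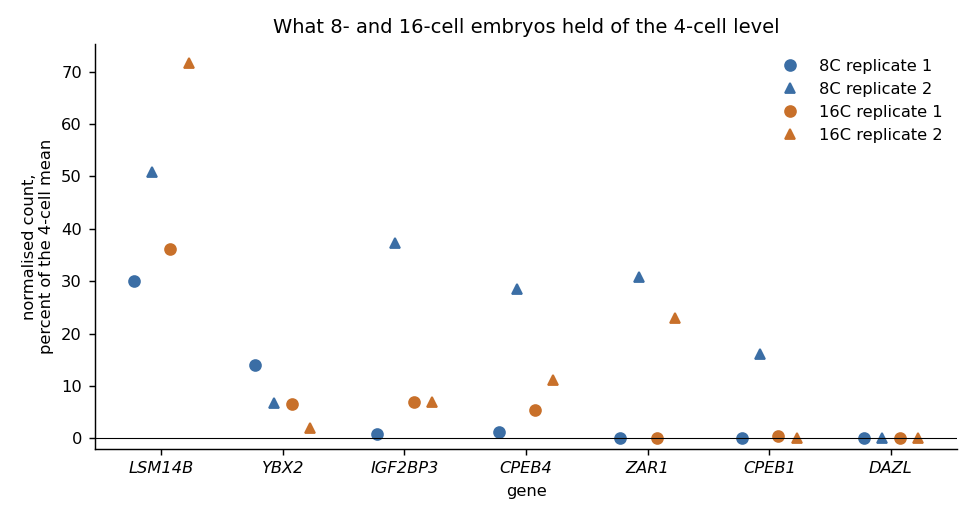
Normalised count as percent of the 4-cell mean (y axis) for the 7 genes that fell at EGA (x axis), in each 8-cell embryo (blue) and 16-cell embryo (orange), with circles for replicate 1 and triangles for replicate 2. IGF2BP3, CPEB4, ZAR1 and CPEB1 lie at 16.1% to 37.3% in 8-cell replicate 2 and at 0 to 1.12% in replicate 1, while DAZL is at 0 in all 4 embryos.

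Over the 16 samples, the log2 levels of the 7 genes that fell were positively correlated in all 21 pairs (Pearson r from 0.28 to 0.89, median 0.79), and each was negatively correlated with YBX1 and DDX6 (r from -0.82 to -0.37). All points share the difference between the periods, and the libraries share their depth, so these values describe the profiles. The lowest of the 21 values was that of YBX2 and LSM14B. Among 8357 other named loci, the one most like CPEB1 was WNT5A (r = 0.98 over 16 samples), and the one most like DAZL was SLC25A31, the adenine nucleotide carrier of germ cells (r = 0.98). ZAR1 was most like PTPRD (r = 0.97), CPEB4 most like CEP85L (r = 0.96), IGF2BP3 most like RALB (r = 0.97) and YBX2 most like CACNA1E (r = 0.92). The best matches of the 2 genes that rose were YWHAQ for YBX1 (r = 0.97) and MTCH1 for DDX6 (r = 0.92).

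Other genes of mRNA storage and decay were taken from 6 lists with 53 names, of which 49 were found and 38 tested at EGA. Of these, 13 rose, 13 fell and 12 did not pass, with a median log2 change of 0.22. These counts and the median lie near those of all loci (36.9% higher, 29.9% lower, median 0.23). In the list for cytoplasmic polyadenylation, 3 rose, 3 fell and 3 did not pass. CPSF4, a subunit of the complex that recognizes polyadenylation signals, rose by 4.59 on the log2 scale (standard error 0.38, adjusted p = 1.5e-09 from limma), from 72.6 ± 27.0 normalised counts before EGA (SD, n = 6) to 1876 ± 825 after it (SD, n = 10), without overlap.

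Among processing body and cap-binding genes, 2 rose, 4 fell and 3 did not pass. DCP1A, a cofactor of the decapping enzyme, fell by 2.57 (adjusted p = 7.9e-05) and XRN1, the exonuclease that degrades decapped mRNA, fell by 2.56 (adjusted p = 2.3e-04 from limma), both without overlap. Of the IGF2BP and m6A reader genes, 3 rose, 1 fell and 2 did not pass. YTHDF2, a reader that directs methylated mRNA to decay, rose by 3.02 (standard error 0.35, adjusted p = 2.1e-07 from limma). Among the other RNA-binding genes, 5 rose, 3 fell and 2 did not pass. BICC1, an RNA-binding protein of the oocyte and early embryo, fell by 4.62 (adjusted p = 3.5e-07), and ELAVL1, a stabilizing protein, fell by 1.53 (adjusted p = 2.1e-04 from limma). The 2 poly(A)-binding protein genes tested did not pass.

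For 3 more genes the values are given because they are relatives or partners, and they were chosen after their values were seen. EIF4E1B, the oocyte form of the cap-binding protein, ranged from 2528 to 12724 normalised counts before EGA. After EGA it ranged from 1.17 to 2859 with a median of 5.43, and the high value was that of 8-cell replicate 2. It fell by 8.94 on the log2 scale (standard error 1.01, adjusted p = 1.4e-07 from limma), but the size depended on the model, with -4.66 in edgeR (adjusted p = 0.00631) and -4.63 in DESeq2 (adjusted p = 0.00155). ZAR1L, the relative of ZAR1, had its highest values in MII oocytes, 138 and 204, and fell by 4.70 at EGA (adjusted p = 1.1e-05 from limma). The log2 change of ZAR1L was -3.45 in both edgeR (adjusted p = 0.00168) and DESeq2 (adjusted p = 3.9e-04). Here too 8-cell replicate 2, at 74.6, was above all later samples, but 16-cell replicate 2, where ZAR1 was high, had 1.62 normalised counts (1 read). LSM14A, the general form of the scaffold protein, rose by 1.31 (adjusted p = 0.00476 from limma), opposite to LSM14B. LSM14B held 58.8% and 71.6% of the pair's reads in the MII oocytes, 49.0% and 9.66% at 2C and 10.4% and 16.1% at 4C, and 2.97% to 9.96% in the samples after EGA. Its share was thus low in 3 of the 4 cleavage embryos before EGA already.

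**Figure D5:**
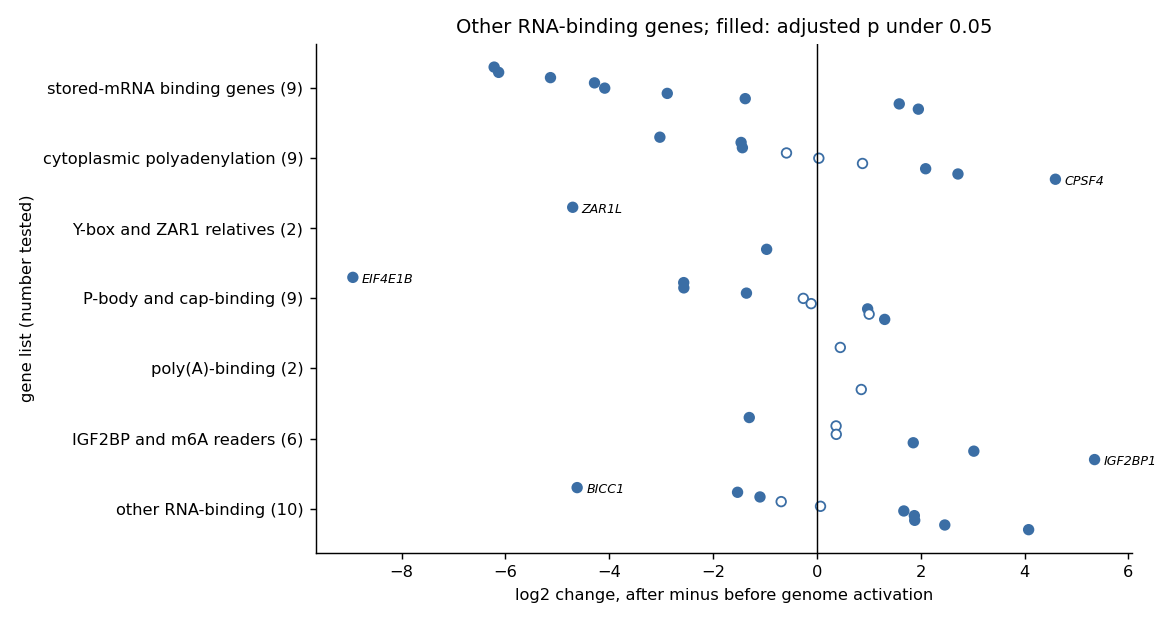
Log2 change from before to after EGA (x axis) for each gene tested, by gene list (y axis), with filled points for an adjusted p under 0.05. The top line holds the 9 genes described here, 7 of them left of 0, and the named points are the 5 list genes furthest from 0, from EIF4E1B at -8.94 to IGF2BP1 at 5.35.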

How the data were processed

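RNA of single oocytes and embryos was amplified in 2 rounds and sequenced on the SOLiD platform. The submitters' processing notes name cutadapt, FastQC, TopHat, Cufflinks and HTSeq. Versions, the genome build and the rule for reads with several places are not given in the sources used here. The deposited signal is a read count per locus that the authors divided by a size factor of the sample, with no correction for length. Within a sample, values were whole multiples of its lowest non-zero value (100% of them at a tolerance of 0.01), and division by that value gave back the reads. Amplification kits of this kind copy RNA from the poly(A) tail, so a change of tail length and a change of amount cannot be told apart, and reads of YBX1 copies elsewhere in the genome may be counted with it.

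The main test was limma (version 3.58.1, under R 4.3.3), with a trend, on log2(deposited value + 1), on loci kept by filterByExpr of edgeR 4.0.16, at an adjusted p of 0.05. The edgeR quasi-likelihood test and DESeq2 1.42.0 on the recovered reads, other scalings, pseudocounts, filters, a replicate block and left-out samples were alternatives. Replicates of each stage differed by more than sampling noise.

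The genes, lists and comparisons were chosen with earlier results of these data known. List genes were named by rule, the 2 largest called rises and the 2 largest called falls of a list at EGA without overlap between the periods. The most alike locus was that of highest Pearson r among named loci of the 8-stage model. Some genes that these rules select are not reported here. Of the listed names, 1 was found by a synonym (assembly ARS-UCD2.0) and 4 were not found.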

Additional observations from a re-analysis of the deposited data

Results flagged for a closer look

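Among the 10 genes, each period was searched for a sample far from the others by Dixon's ratio on the log2 scale, in 20 groups of 6 or 10 samples. For samples of 1 normal distribution, chance flags about 1 in 20. That rate need not hold here, with mixed stages and values at 0. CPEB1 in 8-cell replicate 2, at 39.0 normalised counts against 5.63 in the next sample, gave a ratio of 0.487 among the samples after EGA. DAZL in 2-cell replicate 1, at 13.5 normalised counts (17 reads) against 79.6 in the next lowest sample, gave a ratio of 0.751 before EGA. DAZL in compact morula replicate 1 was the only sample with reads after EGA, which gives a ratio of 1 whatever the value. It had 2 reads, below the limit of 3 taken as detected. Each period holds several stages.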

How the results depend on the processing

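Of 532 fits of single genes under alternatives that kept all samples, 512 stayed on the same side of the threshold, 17 no longer passed, 3 newly passed and none that passed changed direction. At EGA, all loci gave 7075 calls without a filter and 2668 with 8-cell embryos counted as before, against 4619, and in that last setting CPEB1 and DAZL were not tested because they missed the filter. From MII to 4C, edgeR gave 398 calls against 839, and total-read scaling gave 3 of the 9 genes against 0. From 4C to 8C, edgeR gave 3 of the 9 genes, and the compared stages alone gave 2 of them and 1952 loci against 6 and 3560. In edgeR, CPEB4 (adjusted p = 0.0506), IGF2BP3 (0.0676) and ZAR1 (0.116) were lost. From 16C to BL, a pseudocount of 5 gave 954 calls and edgeR 87, against 539. The causes were not tested.

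With 1 sample left out, the stage effect gave 5783 to 7375 loci and 6 to 9 of the genes, with YBX1, DDX6 and LSM14B lost without MII replicate 2 and LSM14B without MII replicate 1. The comparison at EGA gave 4280 to 4636 loci and all 9 genes. MII to 4C gave 39 to 611 loci and 0 genes, 4C to 8C 1935 to 3844 loci and 1 to 6 genes, 4C to 16C 2236 to 2664 loci and 3 to 4 genes, and 16C to BL 123 to 362 loci and 0 genes. Where 1 sample was left for a stage, it was taken to vary like the other stages. For IGF2BP2 the difference of means ranged from -1.06 to 0.43 CPM.

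A fit with the replicate number as a block gave 4579 loci at EGA, 6381 for the stage effect, 754 from MII to 4C, 3515 from 4C to 8C, 3597 from 4C to 16C and 471 from 16C to BL, and changed no call of the 9 genes. The deviations of same-numbered samples of different stages were weakly correlated (r from -0.257 to 0.134 over 28 pairs of stages). The labels do not say whether the numbers pair the samples. These values cannot decide it, because single embryos of a stage also differed. With 2 samples a stage and few reads of LSM14B, DDX6 and IGF2BP2, small differences were not detectable.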
